A study of Homo sapiens and Mus musculus with 17 samples.

Results

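HEK293T cells lacking HRD1 were compared directly with HEK293T cells lacking SEL1L, by RNA-seq, at the level of each gene's mRNA. The comparison used 6 of the 17 libraries of the series, namely 3 of HRD1 KO and 3 of SEL1L KO, and 3 WT libraries of the same line are shown beside them. HEK293T is a human embryonic kidney cell line. The knockout cells had been made with CRISPR/Cas9, and WT cells had received an empty plasmid carrying no guide RNA. Whether each knockout was a clone or a pool is not given in the sources used here, and the labels name no treatment for any group. Libraries carrying the same replicate number were treated as a pair, and a gene was tested when its FPKM reached 1 in at least 3 of the 6 libraries. This left 15029 of 62714 genes, of which 1403 carried no symbol. FPKM counts fragments per kilobase of transcript after scaling each library by its mapped fragments, so levels can be set side by side between genes. Differences are HRD1 KO minus SEL1L KO of log2(FPKM + 0.1) values, and for weakly expressed genes this scale makes differences look smaller than they are.

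In endoplasmic reticulum (ER)-associated degradation (ERAD), misfolded proteins are drawn from the ER, ubiquitinated and handed to the proteasome. HRD1, the product of SYVN1, is the ubiquitin ligase that also forms the channel across the ER membrane, and SEL1L is the membrane adaptor that brings substrates to HRD1 and stabilises it. When misfolded proteins build up, the sensors IRE1α, PERK and ATF6 start the unfolded protein response (UPR), which raises the mRNAs of ER chaperones and of the ERAD machinery.

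The libraries differed in ways that the genotype label does not give. The 6 libraries spanned relative depths of 0.745 to 1.36 (the median of the 9 HEK293T libraries being 1), as read from the smallest FPKM steps of weakly expressed genes. Libraries within a group correlated at 0.876 to 0.951 (Pearson's r of log2 values across genes, which are not independent). Same-numbered libraries of the 2 groups correlated at 0.937 to 0.955 and those with different numbers at 0.898 to 0.92. The labels do not say whether the samples came from separate cultures, so the p-values measure only the spread between these libraries, which may be technical. Of 14 markers of the line, 11 reached 1 FPKM in all 6 libraries, with VIM between 269 and 513 FPKM and HOXA9 between 78.7 and 185 FPKM. The exceptions were NEFM and INA, near 0 in SEL1L KO replicates 1 and 2, and SALL4, at 0.11 to 0.54 FPKM for SEL1L KO against 0.98 to 1.35 for HRD1 KO. The kidney tubule marker UMOD was listed at 0 in all 6 libraries. The summed FPKM of the 10 kidney tubule and podocyte markers was 4.38 to 6.03 for HRD1 KO against 4.25 to 5.32 for SEL1L KO. The sums of the 8 blood cell markers (2.94 to 5.11 for HRD1 KO against 3.57 to 4.85 for SEL1L KO), 5 endothelial markers (at most 0.39) and 6 hepatocyte markers (at most 2.11) were similarly low, and the 8 fibroblast markers summed to 6.43 to 16.3 for HRD1 KO against 5.1 to 7.29 for SEL1L KO.

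The genes targeted in these cells were examined first. SEL1L (ENSG00000071537; GRCh38 chromosome 14, 81471547 to 81533853) reached 3.79, 19.3 and 24.1 FPKM in replicates 1 to 3 of HRD1 KO, 1.82, 3.36 and 2.59 in SEL1L KO, and 4.39, 8.74 and 12.8 in WT. Every SEL1L KO library lay below its WT partner and below all HRD1 KO libraries, but HRD1 KO replicate 1 exceeded the highest SEL1L KO library by little and lay below its own WT partner. SEL1L was higher in HRD1 KO in all 3 pairs, by a log2 difference of 2.22 with a standard error of 0.39 (limma, Benjamini-Hochberg adjusted p = 0.505). The difference was 1.02 in pair 1, 2.49 in pair 2 and 3.17 in pair 3. SYVN1 (ENSG00000162298; chromosome 11, 65121780 to 65134532) stood at 22.5, 18.5 and 19.8 FPKM in HRD1 KO, 28.9, 28.4 and 25.9 in SEL1L KO and 16.9, 16.7 and 16.9 in WT. Here the HRD1 KO libraries lay below every SEL1L KO library but above every WT library. The SYVN1 mRNA level therefore does not bear out the label relative to WT, and alone it cannot decide whether the protein was lost. The paper reports that several proteins were degraded more slowly in its HRD1 KO HEK293T cells. It also reports immunoblots that check its KO HEK293T lines. Per the paper, polyubiquitination of the ER protein PIGK depended on HRD1. Restoring HRD1 in the HRD1 KO cells lowered the surface protein CD59 there. Directions drawn from these libraries are given for HRD1 KO-labelled libraries. The log2 difference of SYVN1 was -0.45 with a standard error of 0.17 (adjusted p = 0.808, limma), lower in all 3 pairs. Neither the site cut by the guide nor the protein level was analysed here.

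**Figure D1:**
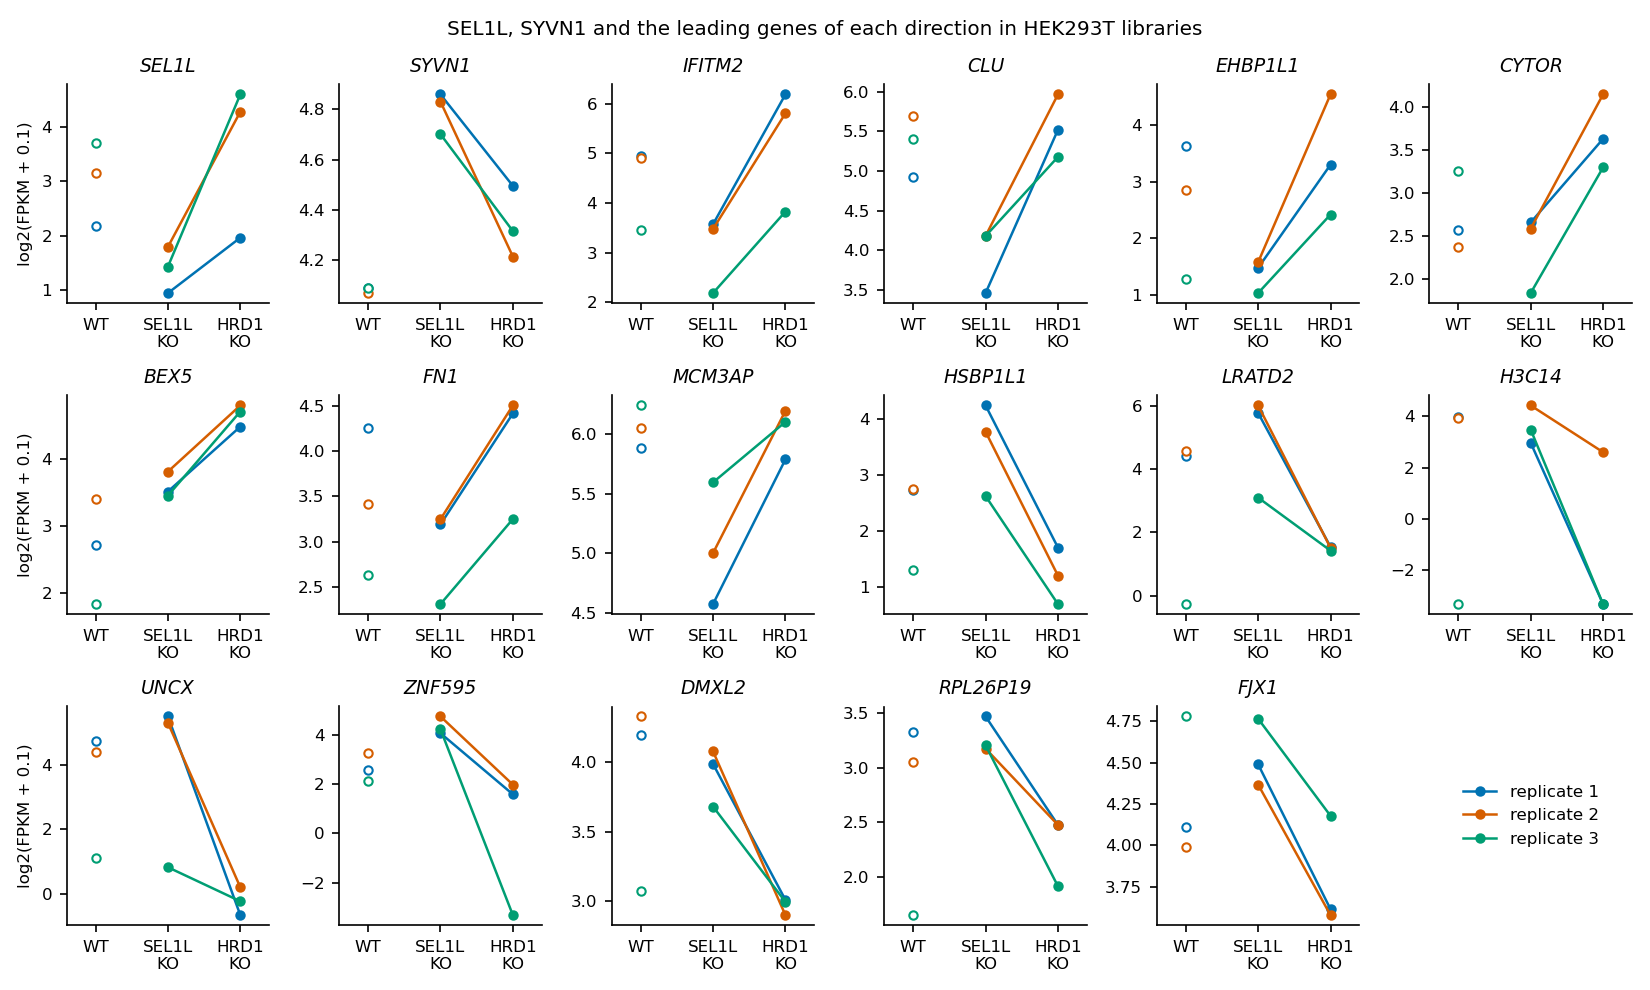
Levels of SEL1L, SYVN1 and the other leading genes as log2(FPKM + 0.1) in each library, with filled points and lines joining the SEL1L KO and HRD1 KO libraries of a replicate and open points for WT; each panel has its own axis. SEL1L was higher and SYVN1 lower in HRD1 KO-labelled libraries in all 3 pairs, and replicate 3 lay apart from replicates 1 and 2 for LRATD2 and UNCX.

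No gene passed an adjusted p of 0.05 among the 15029 tested, in either direction (limma with the replicate number as a block), so 0% were called. Without adjustment, a p under 0.05 was reached by 494 genes (3.29%) that were higher and 427 (2.84%) that were lower in HRD1 KO-labelled libraries. The lowest adjusted p was 0.146, shared by IFITM2 and HSBP1L1. The median difference over all genes tested was 0.0045, and 13.0% of them were higher and 12.1% lower in all 3 pairs. In 2.64% of genes all 3 HRD1 KO-labelled libraries lay above all SEL1L KO libraries, and in 2.48% they lay below. The genes nearest to a call, taken as those with the lowest p among genes of mean FPKM of at least 5 that kept their direction in all 3 pairs without overlap, are therefore described by their values, and their common sign and lack of overlap follow from that choice.

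IFITM2, an interferon-induced membrane protein that restricts virus entry, stood at FPKM values of 72.8, 55.9 and 14.1 in HRD1 KO-labelled libraries against 11.8, 11.02 and 4.44 in SEL1L KO. WT stood between them, at 30.8, 29.8 and 10.9 FPKM. The log2 difference was 2.2 with a standard error of 0.23. Because IFITM2 has close paralogs among the IFITM genes, its share of reads is uncertain. CLU, which encodes the secreted chaperone clusterin, reached 45.8, 62.4 and 36.1 FPKM against 10.9, 18.1 and 18.1 in SEL1L KO. Its WT values of 30.3, 51.6 and 42.4 were close to those of HRD1 KO-labelled libraries, and the log2 difference was 1.61 (standard error 0.23, adjusted p = 0.2998, limma). FN1, the matrix glycoprotein fibronectin, stood at 21.2, 22.5 and 9.42 against 9.04, 9.41 and 4.88 FPKM, with a difference of 1.14. EHBP1L1, which binds Rab GTPases, differed by 2.06 and the long noncoding RNA CYTOR by 1.33, and CYTOR shares sequence with a near-identical copy. BEX5 was the steadiest of these genes, with 22.1, 27.6 and 25.9 FPKM against 11.3, 13.9 and 10.8 in SEL1L KO and 6.48, 10.5 and 3.47 in WT, a difference of 1.07. MCM3AP, which encodes a factor of mRNA export, had 55.1, 73.1 and 68.5 FPKM against 23.8, 32.0 and 48.2. It lies on chromosome 21, whose genes as a whole were lower in SEL1L KO replicates 1 and 2, and its difference of 0.97 was 0.70 after each library had been centred on the median of its chromosomes. An antisense gene overlaps MCM3AP, and whether the counting used strand is not given in the sources used here.

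In the other direction, HSBP1L1, related to a binding protein of heat shock factor, had 3.14, 2.19 and 1.51 FPKM in HRD1 KO-labelled libraries and 18.7, 13.5 and 6.03 in SEL1L KO, a log2 difference of -2.35 (standard error 0.25). LRATD2 was at 2.81, 2.75 and 2.58 FPKM against 54.8, 64.6 and 8.47 in SEL1L KO, and at 21.1, 23.6 and 0.73 in WT. UNCX, a homeobox transcription factor, stood at 0.54, 1.06 and 0.76 against 44.7, 39.0 and 1.68, and 26.4, 21.0 and 2.09 in WT. In both genes replicates 1 and 2 stood far above replicate 3 in SEL1L KO and in WT, so that the difference of pair 3 (-1.68 for LRATD2 and -1.05 for UNCX) was much smaller than those of pairs 1 and 2. ZNF595 was listed at 0 in replicate 3 of HRD1 KO-labelled libraries, and the histone gene H3C14, one of a family with near-identical copies, at 0 in replicates 1 and 3. ZNF595 stood at 16.7, 26.8 and 18.6 FPKM in SEL1L KO and H3C14 at 7.71, 21.3 and 11.1. In WT, ZNF595 stood at 5.9, 9.6 and 4.29 FPKM and H3C14 at 15.47, 15.14 and 0. DMXL2, a protein of vesicle acidification, was at 7.96, 7.37 and 7.88 FPKM against 15.8, 16.8 and 12.7, a difference of -0.95. FJX1, a secreted and Golgi protein, differed by -0.75, and the ribosomal pseudogene RPL26P19, whose reads cannot be told from those of its parent with certainty, by -0.99.

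Differences of a similar kind marked single libraries. The neurofilament gene NEFM, a marker of the HEK293T line, had 84.6, 104 and 50.2 FPKM in HRD1 KO-labelled libraries but 0.34, 0.11 and 50.9 in SEL1L KO, with 23.02, 29.7 and 39.98 in WT. INA, another intermediate filament gene of neurons, followed with 10.1, 10.9 and 9.36 against 0.51, 0.19 and 13.8. SEL1L KO replicates 1 and 2 were therefore near 0 for both genes and replicate 3 was not, and in pair 3 neither gene was higher in the HRD1 KO-labelled library. The median difference of the marker list was 0.078 over 13 genes tested, and -0.095 when genes had to reach 1 FPKM in all 6 libraries.

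Genes of the ERAD complex were taken next. All 25 members of the HRD1 complex and its cofactors were tested, and none passed the adjusted threshold. In all 3 pairs, 8 of the 25 were higher and 1 lower, against 13.0% and 12.1% of all genes. The 8 included SEL1L and the 1 was SYVN1, the genes targeted in these cells. The part of the targeting in these counts was not tested. The median difference was 0.04. That median was 0.16 without replicate 1, 0.0165 without replicate 2, 0.12 without replicate 3 and 0.0054 with median-ratio scaling. DERL1, a rhomboid-like protein of the retrotranslocation channel, had 26.6, 26.2 and 23.3 FPKM in HRD1 KO-labelled libraries and 18.6, 20.1 and 18.4 in SEL1L KO. Its groups did not overlap and its difference was 0.41, with an unadjusted p of 0.0412 in limma. DERL2 behaved alike in sign, at 38.3, 33.4 and 35.4 FPKM against 27.9, 30.1 and 30.9. OS9, a lectin that presents glycoproteins to SEL1L, was at 117, 80.6 and 65.5 against 70.2, 54.98 and 64.6, a difference of 0.43, of which pair 3 showed almost nothing. HERPUD1, a membrane cofactor that the UPR raises, stood at 176, 353 and 194 FPKM against 168, 311 and 139, while WT lay at 50.3, 69.4 and 45.5. DERL3 was at 35.5, 24.8 and 21.1 against 32.8, 35.8 and 29.2 FPKM, without a common direction. The ATPase VCP, which pulls substrates from the membrane, differed by 0.04, the conjugating enzyme UBE2J1 by -0.01 and the mannosidase-like EDEM1 by 0.00. Apart from SEL1L and SYVN1, differences within this list lay between -0.35 and 0.43, with standard errors of 0.14 to 0.26.

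The 37 ER chaperones and folding enzymes were all tested. A difference above 0 was found in 7640 of all 15029 genes, and in 31 of these 37. Their median difference was 0.18, against 0.0045 for all genes, and it was 0.21, 0.25 and 0.20 in pairs 1 to 3. In all 3 pairs, 17 were higher and 1 lower, and a p under 0.05 before adjustment was reached by 7 higher members and 0 lower members, against 3.29% and 2.84% of all genes. Among the 1206 genes with a mean FPKM of at least 100, 3.81% were higher and 3.23% lower at that p, and 15.0% were higher and 11.9% lower in all 3 pairs. No member passed the adjusted threshold, and CALR and PDIA4 passed it once replicate 3 was left out, a fit in which 356 genes passed as higher. On group means, both knockouts stood above WT in 31 of the 37 genes, against 24.6% of all genes tested. In 17 of them every knockout library lay above every WT library, against 0.619% of all genes.

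PDIA4, a protein disulfide isomerase of the ER, was the member with the largest difference. Its FPKM was 659, 734 and 589 in HRD1 KO-labelled libraries, 381, 484 and 471 in SEL1L KO and 102, 119 and 108 in WT. The knockout groups did not overlap, and the difference was 0.57 with a standard error of 0.13 (adjusted p = 0.780, limma). HSPA5, which encodes the ER Hsp70 chaperone BiP, had 1247, 2846 and 1068 FPKM in HRD1 KO-labelled libraries, 920, 1886 and 868 in SEL1L KO and 194, 369 and 158 in WT. Replicate 2 was high in every group, so the groups overlapped although each pair differed in the same direction, by 0.44, 0.59 and 0.30. HSP90B1, the ER Hsp90 GRP94, gave 1112, 1877 and 1393 FPKM against 867, 1251 and 1083. HYOU1, an ER Hsp110 that exchanges nucleotide on BiP, gave 143, 175 and 229 against 87.2, 114 and 179. CALR, the glycoprotein chaperone calreticulin, was at 1291, 1241 and 1045 FPKM against 791, 905 and 912, without overlap. Its membrane-bound relative CANX was nearly equal in pair 1, at 290 and 289 FPKM, and higher in pairs 2 and 3, at 598 against 408 and 948 against 616. DNAJC1, a J-domain partner of BiP, completed the 7, with a difference of 0.42. These genes differed by 0.39 to 0.57, or 1.31- to 1.49-fold.

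Members without such a difference included DNAJB9, a J-domain protein that IRE1α signalling raises, at 6.04, 22.1 and 11.9 FPKM in HRD1 KO-labelled libraries and 12.5, 18.0 and 9.07 in SEL1L KO. DNAJC10, HSPA13 and DNAJB9 were lower in pair 1 and higher in pairs 2 and 3. SDF2L1 and CRELD2, both on chromosome 22, were higher in pairs 1 and 2 and lower in pair 3. SEC63, which couples BiP to the translocon, was lower in all 3 pairs, with a difference of -0.29 and an unadjusted p of 0.132 (limma).

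The promoters of these genes are shown because ER stress elements are the sites known to couple chaperone genes to ATF6 and XBP1. The 250 bases before the RefSeq start (GRCh38.p14) were searched on both strands for ERSE (CCAAT and CCACG with 9 bases between them) and ERSE-II (ATTGG and CCACG with 1 base between them). ERSE was found in 0.074% and ERSE-II in 0.0513% of 35116 such windows, and in 0.0916% and 0.0659% of 27305 genes with a window. Among the 33 chaperone genes with a window, ERSE was found in 7 and ERSE-II in 2. Of the 7 genes described above, HSPA5, HSP90B1, CALR and CANX held ERSE and HYOU1 held ERSE-II. Among the other chaperone genes, CRELD2, ERO1B and PDIA6 held ERSE and SDF2L1 held ERSE-II. PDIA4 held neither set of letters in any of its windows, and DNAJC1 had no window. CANX had several windows, of which some held no match, and a window with a match is shown. Capitals mark the matches, and lower case the rest of the 250 bases in the 5′ to 3′ direction of the gene.
HSPA5 (chr9:125241344-125241593, minus strand): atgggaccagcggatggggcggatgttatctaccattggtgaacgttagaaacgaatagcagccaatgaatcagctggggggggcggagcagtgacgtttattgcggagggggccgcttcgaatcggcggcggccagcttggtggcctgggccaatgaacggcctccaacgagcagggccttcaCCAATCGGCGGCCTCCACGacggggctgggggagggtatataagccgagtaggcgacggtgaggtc
HSP90B1 (chr12:103930160-103930409, plus strand): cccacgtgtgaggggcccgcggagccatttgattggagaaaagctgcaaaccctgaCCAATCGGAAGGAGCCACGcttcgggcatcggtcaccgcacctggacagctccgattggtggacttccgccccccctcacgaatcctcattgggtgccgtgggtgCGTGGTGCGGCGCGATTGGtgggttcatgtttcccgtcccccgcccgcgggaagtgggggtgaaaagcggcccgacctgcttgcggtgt
CALR (chr19:12938359-12938608, plus strand): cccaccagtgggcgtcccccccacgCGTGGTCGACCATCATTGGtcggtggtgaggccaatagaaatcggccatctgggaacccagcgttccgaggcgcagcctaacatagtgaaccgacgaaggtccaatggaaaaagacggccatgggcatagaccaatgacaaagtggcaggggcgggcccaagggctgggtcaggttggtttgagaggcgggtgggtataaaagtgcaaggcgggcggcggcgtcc
CANX (chr5:179698679-179698928, plus strand): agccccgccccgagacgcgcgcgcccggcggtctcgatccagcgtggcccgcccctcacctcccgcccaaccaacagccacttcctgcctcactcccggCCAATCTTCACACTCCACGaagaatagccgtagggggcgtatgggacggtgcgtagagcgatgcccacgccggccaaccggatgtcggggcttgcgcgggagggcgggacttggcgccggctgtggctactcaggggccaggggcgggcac
HYOU1 (chr11:119057206-119057455, minus strand): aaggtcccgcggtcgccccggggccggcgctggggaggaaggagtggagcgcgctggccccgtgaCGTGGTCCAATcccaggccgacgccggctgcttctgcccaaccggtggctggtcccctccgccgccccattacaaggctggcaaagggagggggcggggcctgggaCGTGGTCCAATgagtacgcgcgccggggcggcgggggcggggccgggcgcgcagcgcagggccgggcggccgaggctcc
PDIA4, with the largest difference, therefore had no match in its windows, while XBP1 and HERPUD1, which each had a match, differed by -0.48 and 0.25. A match of letters is a description of the window and not evidence of binding.

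**Figure D2:**
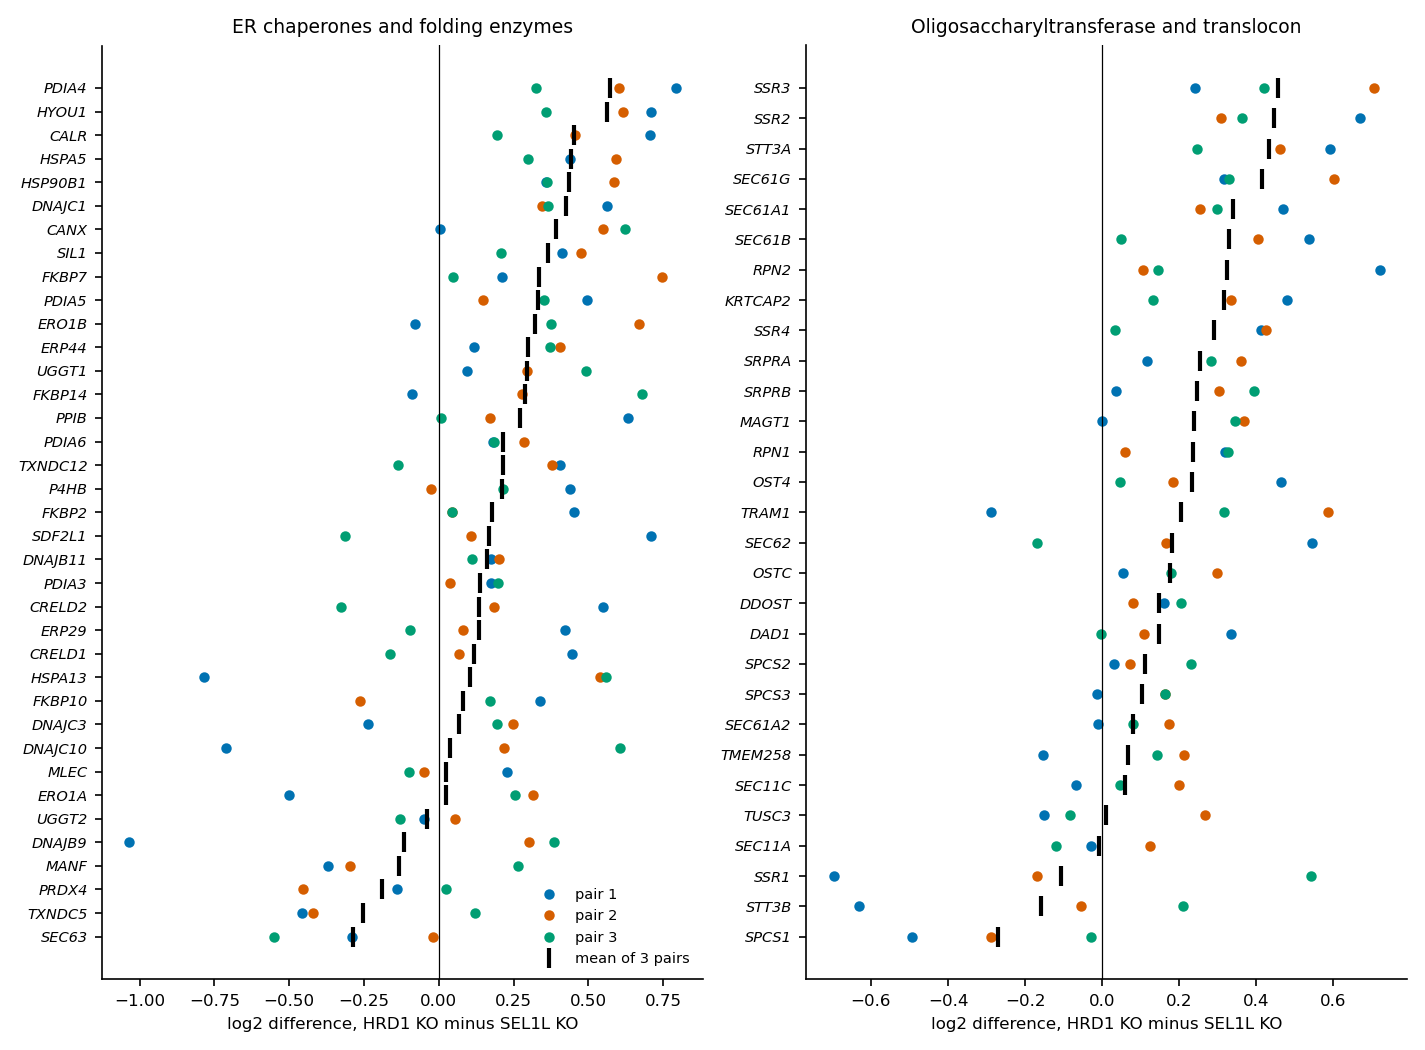
Log2 difference of each ER chaperone or folding enzyme (left) and each oligosaccharyltransferase or translocon gene (right) in pairs 1 to 3 (coloured points) with the mean of the pairs (black bar), HRD1 KO minus SEL1L KO. The mean lay above 0 for 31 of 37 and 25 of 29 genes, and 17 and 16 of them were higher in all 3 pairs. Of all 15029 genes tested, 7640 had a mean above 0.

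A second group lay higher to a like extent. Of 29 genes of the oligosaccharyltransferase, which adds N-glycans, and of the translocon and signal peptidase, through which proteins enter the ER, 25 had a difference above 0, and the median was 0.20. In all 3 pairs, 16 were higher and 1 lower, and 7 higher members and 0 lower members had a p under 0.05 before adjustment, none at the adjusted threshold. The shares over all genes were 13.0% and 12.1% for the pairs and 3.29% and 2.84% for that p. A difference above 0 was found in 7640 of all 15029 genes. SEC61G, a small subunit of the translocon channel, had 809, 787 and 694 FPKM in HRD1 KO-labelled libraries against 651, 518 and 552 in SEL1L KO and 481, 459 and 434 in WT. Its groups did not overlap, and its difference was 0.42 (standard error 0.12, unadjusted p = 0.00914, limma). STT3A, a catalytic subunit of the oligosaccharyltransferase, was at 176, 196 and 180 FPKM against 117, 142 and 151, with 119, 123 and 117 in WT, so that its SEL1L KO level was nearer to WT. SSR2 and SSR3, subunits of the translocon-associated protein complex, differed by 0.45 and 0.46. SEC61A1 and SEC61B, the other translocon subunits, differed by 0.34 and 0.33, and KRTCAP2 by 0.32. Only SPCS1, a signal peptidase subunit, was lower in all 3 pairs, at 148, 150 and 164 FPKM against 208, 183 and 167 in SEL1L KO.

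**Figure D3:**
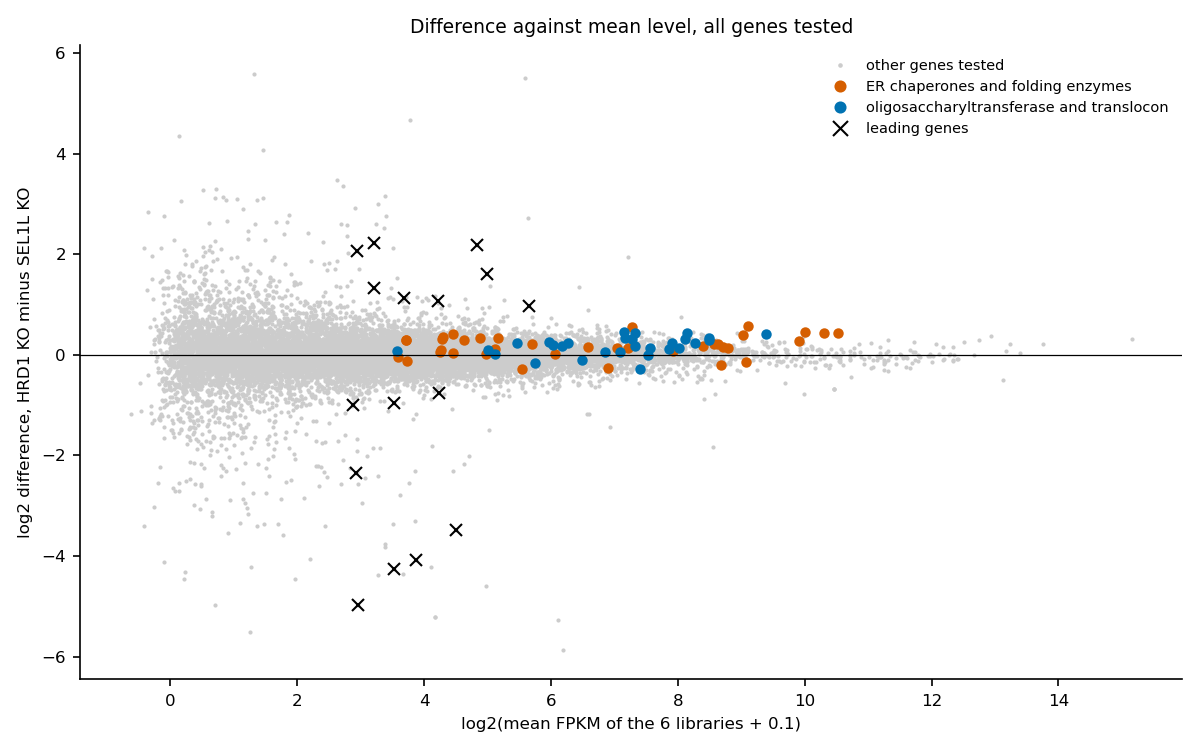
Log2 difference (HRD1 KO minus SEL1L KO) against the log2 mean FPKM of the 6 libraries for all 15029 genes tested, with chaperones in orange, oligosaccharyltransferase and translocon genes in blue and leading genes as crosses. Each leading gene differed more than any chaperone or translocon gene, none of which exceeded 0.57.

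**Figure D4:**
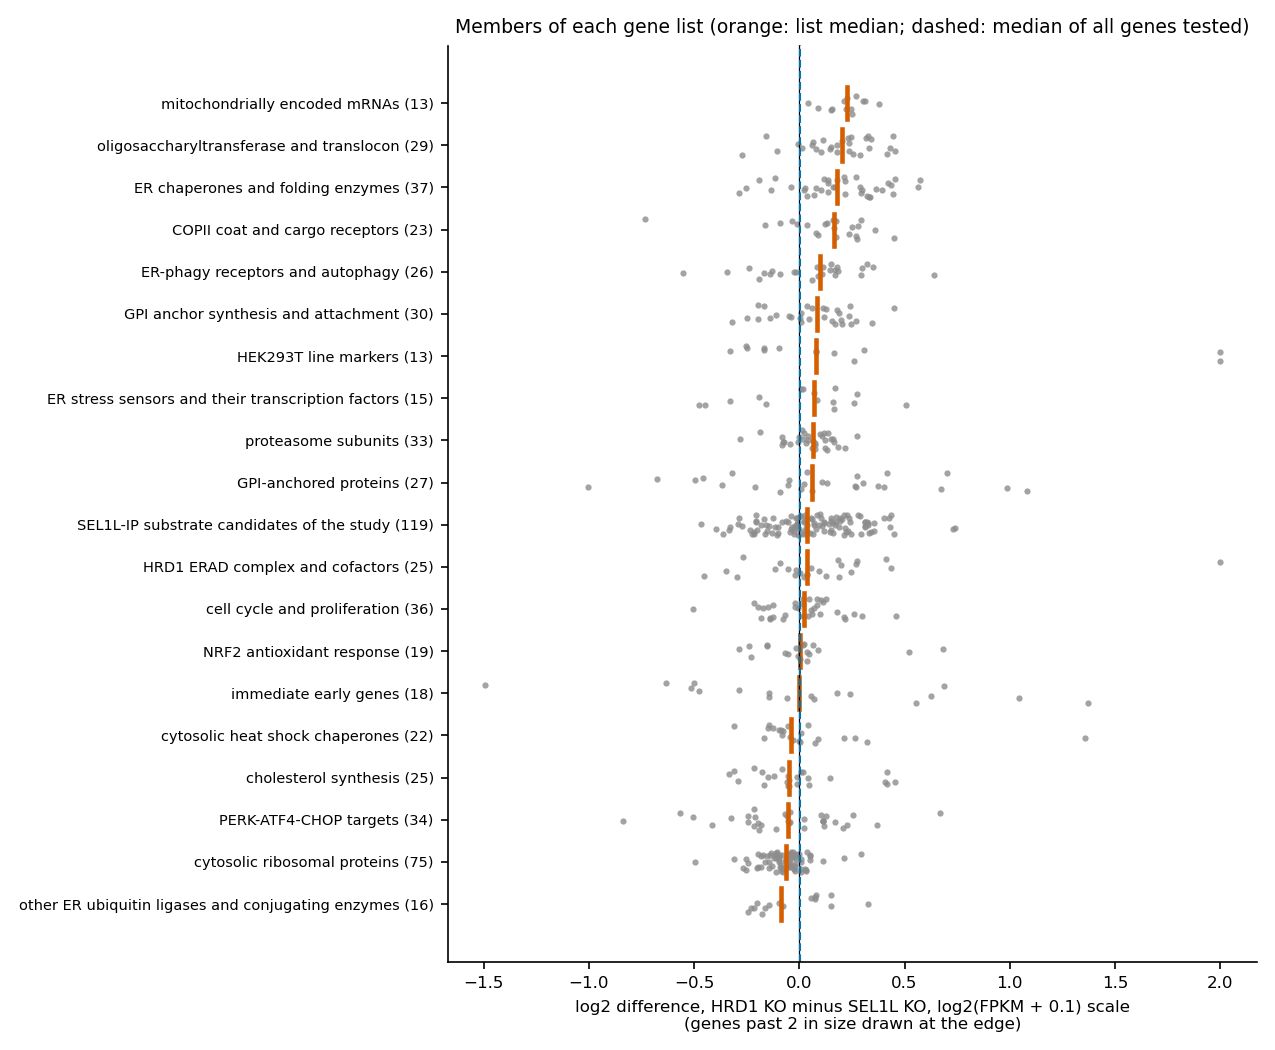
Log2 difference of every tested member of 20 gene lists (grey points), HRD1 KO minus SEL1L KO, with list medians in orange and the median of all genes dashed; the number tested is in brackets. Medians ran from -0.09 (other ER ubiquitin ligases) to 0.23 (mitochondrially encoded mRNAs).

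The sensors and the PERK targets of the UPR had medians nearer to 0. The median over 15 ER stress sensors and their transcription factors was 0.07, or -0.0175 without replicate 1 and 0.0188 without replicate 2, and none passed even an unadjusted p of 0.05. XBP1, the transcription factor spliced by IRE1α, was at 114, 400 and 364 FPKM in HRD1 KO-labelled libraries and 295, 356 and 427 in SEL1L KO, so pair 1 carried most of its difference of -0.48. Of the 34 tested targets of PERK, ATF4 and CHOP, 2 (5.88%) were higher and 3 (8.82%) lower in all 3 pairs, against 13.0% and 12.1% of all genes. The median was -0.05, which took either sign over the alternatives (-0.17 without replicate 3 to 0.05 without replicate 2). TRIB3, a pseudokinase induced by ATF4 and CHOP, was lower in all 3 pairs, at 21.9, 14.9 and 7.88 FPKM against 25.4, 26.5 and 11.03 (difference -0.51, unadjusted p = 0.0334, limma). CEBPB, a transcription factor, was at 17.2, 23.3 and 24.03 against 53.8, 44.1 and 23.3, and pair 3 did not share its difference of -0.84. GDF15 and NUPR1 were listed at 0 in both replicate 3 libraries.

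Other parts of the secretory pathway were described by the same lists. Among 23 genes of the COPII coat and cargo receptors, the median was 0.16, or 0.04 without replicate 2. Here SURF4, a cargo receptor, was higher in all 3 pairs (125, 128 and 141 against 92.1, 91.4 and 127 FPKM) and KDELR3, a receptor that returns ER proteins, was lower in all 3 (2.58, 6.83 and 27.7 against 7.96, 7.82 and 37.3). Of 30 genes of GPI anchor synthesis and attachment, 9 were higher and 1 lower in all 3 pairs against 13.0% and 12.1% of all genes, and none reached an unadjusted p of 0.05. Their median was 0.09, or 0.03 without replicate 2 and after centring on chromosomes. Among 27 tested of 36 GPI-anchored proteins, TFPI, an inhibitor of coagulation, differed by 1.08, EFNA5, an ephrin ligand, by 0.70 and LYPD1 by -1.01. For TFPI HRD1 KO-labelled replicate 2 stood out, at 12.1 FPKM against 4.62 and 2.10 in the others. The 26 tested ER-phagy and autophagy genes (median 0.10), 33 proteasome subunits (0.06) and 16 other ER ubiquitin ligases and conjugating enzymes (-0.09) held no gene at an unadjusted p under 0.05. These medians moved when a replicate was left out, to 0.0182 and 0.0155 without replicates 1 and 2 for ER-phagy, -0.0236 and 0.12 without replicates 1 and 3 for the proteasome, and -0.03 and 0.0043 without replicates 1 and 3 for the other ligases. Among 119 candidate substrates of SEL1L and HRD1, 20 (16.8%) were higher and 7 (5.88%) lower in all 3 pairs, against 13.0% and 12.1% of all genes. The paper took them from mass spectrometry of SEL1L immunoprecipitates. Hits whose mRNA rose significantly in its RNA-seq were left out, so the list is no independent evidence of a direction. An unadjusted p under 0.05 was reached by 4 (STT3A, OS9, POFUT2 and HLA-E, all higher), or 3.36% against 3.29% of all genes. The median was 0.04, and the number higher at that p was 8, 0 and 9 without replicates 1, 2 and 3. Over all 15029 genes that number was 545, 247 and 1064 in these fits.

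Outside the secretory pathway, the 13 mitochondrially encoded mRNAs had a median of 0.23, and 6 were higher and 0 lower at a p under 0.05 before adjustment, against 3.29% and 2.84% of all genes. Without replicate 1 the higher number was 11, without replicate 2 it was 0 and without replicate 3 it was 1. Over all 15029 genes, 545, 247 and 1064 were higher at that p in these fits. The summed FPKM of the 13 mRNAs spanned 103400 to 165500 for HRD1 KO-labelled libraries against 80380 to 127000 for SEL1L KO. Their medians in pairs 1, 2 and 3 were 0.04, 0.30 and 0.33. The 75 cytosolic ribosomal protein genes had a median of -0.06 and 18 were lower and 1 higher in all 3 pairs, against 12.1% and 13.0% of all genes. That median was -0.13, -0.04 and -0.03 without replicates 1, 2 and 3. RPS2 was at 7481, 6817 and 7796 FPKM against 13012, 10694 and 8002. The part of these abundant groups in the differences of other genes was not tested. Among 22 tested cytosolic heat shock genes (median -0.04, or 0.03 without replicate 1), HSPB1, a small heat shock protein, was at 144, 124 and 97.5 FPKM against 33.3, 34.6 and 89.7, a difference of 1.36 in which pair 3 was small. Among 19 tested NRF2 targets, HMOX1, heme oxygenase, was at 14.1, 13.2 and 9.0 against 9.12, 8.75 and 7.07 FPKM, below WT in both knockouts in replicates 2 and 3. The median was -0.05 over 25 tested cholesterol synthesis genes (0.08 without replicate 3), and of 36 cell cycle genes CCND2, cyclin D2, was lower in all 3 (-0.50). Among 18 tested immediate early genes, FOSB (1.37) was high in a single library, at 21.7 FPKM in replicate 2 of HRD1 KO-labelled libraries. At an unadjusted p under 0.05, 4 members were lower (DUSP6, JUND, JUN and IER5) and 1 higher, against 2.84% and 3.29% of all genes. The lower number was 0 without the block, and 2, 2 and 4 without replicates 1, 2 and 3. Over all 15029 genes it was 127, and 554, 306 and 809, in these fits.

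Whole chromosomes and base composition also moved with single libraries. For 98 genes of chromosome 21 whose FPKM reached 5 in all 9 HEK293T libraries, the median was -0.42 in SEL1L KO replicate 1 and -0.43 in replicate 2 relative to the same-numbered WT, with 91 and 90 of the genes below WT, but -0.05 in replicate 3. In SEL1L KO replicate 3, chromosome 13 stood at 0.50 and chromosome 22 at 0.28, and in pair 3 these chromosomes were lower in the HRD1 KO-labelled library, by medians of -0.43 and -0.46. Chromosome 3 lay at -0.33 and -0.35 relative to WT in the replicate 3 libraries of HRD1 KO and SEL1L KO. GC content of the transcript tracked the difference in pair 1 (Pearson's r 0.288 across 15019 genes, which are not independent), where the median ran from -0.34 in the fifth of genes with the lowest GC content to 0.34 in the highest, but hardly in pair 2 (-0.055) and oppositely in pair 3 (-0.153). The chaperone median was 0.18 after correction for GC content and transcript length and 0.22 after centring on chromosomes.

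**Figure D5:**
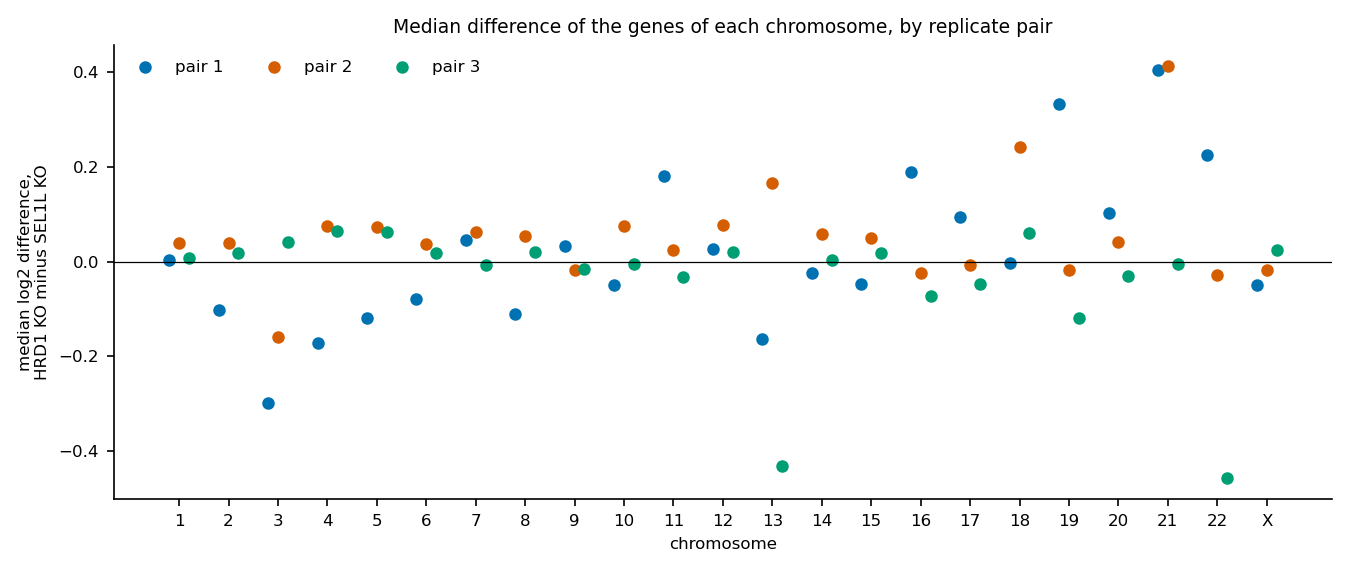
Median log2 difference (HRD1 KO minus SEL1L KO) of the genes of each chromosome in pairs 1 to 3, over genes whose FPKM reached 5 in all 9 HEK293T libraries. Chromosome 21 was higher in pairs 1 and 2, by 0.40 and 0.41, and chromosomes 13 and 22 lower in pair 3.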

How the data were processed

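Total RNA of HEK293T cells was enriched for polyA and sequenced as paired-end reads. Per the labels, reads were checked with FastQC 0.11.8, aligned to GRCh38 with STAR 2.7.8a and quantified with RSEM 1.3.3, and the authors deposited FPKM per gene and library, normalized to transcript length and library total. FPKM are not counts, so the authors' DESeq2 test on counts was not repeated, and the number of fragments behind a value is unknown. RSEM divides reads among similar genes by estimate.

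Log2(FPKM + 0.1) values of the 6 knockout libraries were fitted with limma 3.58.1 in R 4.3.3 (lmFit, eBayes with trend), with group and replicate number as terms, and p-values were adjusted by Benjamini-Hochberg over 15029 genes. The block was used because deviations of same-numbered libraries from their group means correlated at 0.374 to 0.457 and those of others at -0.376 to -0.10. With 3 pairs an exact sign-flip test cannot go below 0.25, so none was run. A simulation (14585 genes) drew independent normal noise for each gene, with the variances that limma had drawn towards a common trend. Such variances differ less between genes than those before that step. In it, 55 of 97 genes changed by 1 (log2) and 86 of 91 changed by 2 were called, and 22 of 14397 unchanged genes. The GC trends and chromosome shifts within pairs, and other correlation between genes, were not simulated. These shares therefore need not hold for the real data. At most 0.406% of values were identical between 2 libraries of a group, so none was a copy of another. Each was counted as a sample, although this check cannot show that the cultures were separate.

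Members and gene lists were chosen with earlier results of these data known. Leading genes were taken as the 8 of lowest p in each direction with a symbol, mean FPKM of at least 5, the same sign in all 3 pairs and no overlap. From the lists, the ERAD members, members called and up to 4 with the largest difference were open to naming, and members named beyond these were chosen after their values were seen. Positions and transcripts are from GENCODE release 44 (GRCh38), matched for 15019 genes, and promoters from RefSeq (GRCh38.p14). The 18 alternatives changed the block, libraries, pseudocount (1 or 0.01), filter, scaling, variance model, threshold and replicates. Of these, 2 were added after seeing the data, for GC content with length and for chromosomes. Tables and plots used Python 3.11.15, pandas 2.3.3, NumPy 2.4.6 and matplotlib 3.10.9. Brown adipose tissue libraries were not used.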

Additional observations from a re-analysis of the deposited data

How the results depend on the processing

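Calls at an adjusted p of 0.05 were few under most alternatives and most numerous without replicate 2 or 3. No gene was called without the replicate block (136 genes higher and 127 lower at an unadjusted p under 0.05), with all 9 libraries and no block, with a pseudocount of 0.01, without a filter on low values, under 3 other scalings, or after correction for GC content and length or centring on chromosomes. A count of 1 higher and 1 lower was obtained with all 9 libraries and the replicate block (IFITM2 and HSBP1L1) and with a pseudocount of 1, 2 and 2 with an FPKM of at least 1 in all 6 libraries (adding CLU and LRATD2), 2 and 4 for eBayes without a trend and 2 and 3 with a robust prior. At an unadjusted p under 0.05 the counts were 494 and 427. Leaving out 1 replicate, with the block, removes its whole pair and leaves 1 residual degree of freedom, and gave 0 to 356 genes higher and 0 to 267 lower. Without replicate 1 no gene was called in either direction, without replicate 2 28 and 37, and without replicate 3 356 and 267, where the prior degrees of freedom rose from 5.49 to 1081. The cause was not tested.

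The SEL1L difference ran from 1.75 to 2.83 over the fits that left out a replicate, passed without replicate 2 (adjusted p = 0.0113, limma) and without replicate 3 (6.34e-05), and passed at the unadjusted p with 2.22. SYVN1 ran from -0.50 to -0.37 over these fits and passed only at the unadjusted p, with -0.45. Over all alternatives neither changed sign, nor did the leading genes where they could be fitted (H3C14, UNCX and ZNF595 could not under the filter on all 6 libraries). The median of all genes stayed between -0.027 and 0.02. The chaperone median was 0.15 with median-ratio scaling and with equal sums, 0.22 after centring on chromosomes and 0.18 to 0.25 without a replicate, and the translocon median stayed between 0.17 and 0.22. Chaperones higher at an unadjusted p under 0.05 numbered 2 without the block, 2 with all 9 libraries and no block, 2 without a trend and 3 to 8 without a replicate (3 without replicate 2). Translocon genes numbered 3, 3, 0 and 1 to 8 under the same settings (1 without replicate 2), and 4 with median-ratio scaling. Over all 15029 genes, the number higher at that p was 494 in the main fit. It was 136 without the block, 173 with all 9 libraries and no block and 449 without a trend. Without replicates 1, 2 and 3 it was 545, 247 and 1064, and with median-ratio scaling 424. Mitochondrially encoded mRNAs at that p fell from 6 to 1 with equal sums and to 0 without the block. Over all genes, 400 and 136 were higher at that p under these settings. With 3 pairs the median standard error was 0.22 over all genes and 0.14 at a mean FPKM of at least 100. COPII genes higher at an unadjusted p under 0.05 numbered 1, and 8 without replicate 1, against 494 and 545 of all 15029 genes.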
